A study of Mus musculus with 9 samples.

Results

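The genes described here are 35 genes of fatty acid oxidation and lipid storage, out of 26157 genes in the deposited expression table. They were picked by name, with earlier results of these data known. The set holds enzymes of mitochondrial and peroxisomal beta-oxidation, acyl-CoA synthetases, genes of lipid uptake and binding, lipid droplet genes, lipases and the nuclear receptor gene Ppard. Poly-A RNA was sequenced from J774A.1, a macrophage-like line that was grown out of a mouse tumour, in 9 libraries. Control libraries (3) came from cells in ordinary culture. M2 libraries (3) came from cells given the cytokines IL-4 and IL-13, with 10 ng/mL stated, to bring about the alternatively activated (M2) state. Q11 libraries (3) came from cells that received Q11, which the series title calls a CYP2E1 inhibitor (CYP2E1 is a cytochrome P450), at the same time as the cytokines. The sources used here give neither a dose of Q11 nor a duration of treatment. Each group is thus a treatment of 1 established line, and the study asked whether Q11 alters what IL-4 and IL-13 do to it.

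In beta-oxidation, a fatty acid is first bound to coenzyme A by an acyl-CoA synthetase, carried into the mitochondrion by the carnitine shuttle, and then shortened in repeated rounds of dehydrogenation, hydration, oxidation and thiolysis. Electrons from the dehydrogenation step pass through the electron transfer flavoproteins to the respiratory chain, and very long chains are shortened in peroxisomes first. Fatty acids that are not burned are stored as triglyceride in droplets coated by perilipins and released again by lipases. In macrophages this machinery handles lipid taken up from lipoproteins and dying cells, and fatty acid oxidation is widely described as a feature of cells activated by IL-4.

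Reads recovered from the expression values numbered 15809454 to 17089257 in 8 libraries and 32180960 in Q11 replicate 2. Its reads fell short of those of Q11 replicate 3 in 10 of 19235 genes, and of those of the other 7 libraries in 1928 to 2406 genes, and it was treated as holding the reads of that library as well as its own. Values are given as deposited and, where it matters, with the reads of Q11 replicate 3 subtracted from Q11 replicate 2 (called separated below), which left 15330237 reads there. As deposited, Q11 replicates 2 and 3 are therefore not independent, and the SDs of Q11 libraries can understate the spread between separate libraries. Standard errors, intervals and p-values as deposited use that spread too, and can be too small in every comparison. M2 replicate 3 lay furthest out on the second principal component (17.0% of the variance). All 10 macrophage markers were read, with Cd68 between 2430 and 2653 TPM (transcript abundance scaled by gene length and library size). Their summed level was 12521 to 12948 TPM in control, 8218 to 8839 TPM in M2 and 8568 to 8648 TPM in Q11 libraries. Lyz2 was the largest part of this sum, and its mean went from 6859 TPM (control) to 3595 TPM (M2). Cd14, Mpeg1 and Itgam were also lower in M2 than in control libraries. Mertk lay the other way, with every M2 library above every control library (means 54.1 and 49.7 TPM, limma adjusted p = 0.0943). For Adgre1, Cd68, Csf1r, Fcgr1 and Spi1 these groups overlapped. Of 6 adipocyte markers, 3 had values, and their sum did not exceed 0.115 TPM in any library. Neutrophil markers summed to 30.2 to 40.6 TPM in control, 20.1 to 31.9 TPM in M2 and 17.9 to 21.02 TPM in Q11 libraries, most of it from S100a8, and their part in the results below was not tested. Fewer cells of a type and less RNA per cell cannot be told apart in such bulk libraries.

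Most of the 35 genes were well expressed. TPM are scaled by gene length, here the joint length of all annotated exons, which can exceed that of the transcripts present. Levels of different genes therefore compare only roughly. The control means placed 8 genes above 100 TPM, 24 between 10 and 100 TPM, and 3 below 10 TPM. Fabp5, a cytosolic fatty acid binding protein, led with 661 ± 34.7 TPM (mean ± SD, n = 3, as for every such pair of values below). For Q11 these 3 are the libraries as deposited, which are not all independent. Plin2, the perilipin that coats droplets in most cells, followed with 451 ± 14.8 TPM, then Lpl (lipoprotein lipase, 313 ± 8.49 TPM), Acsl4 (228 ± 10.4 TPM) and Acadl (203 ± 7.78 TPM). At the low end were the hormone-sensitive lipase gene Lipe (8.83 ± 0.450 TPM) and the triglyceride synthesis gene Dgat2 (5.08 ± 0.456 TPM). In this order, 11 of the 34 pairs of neighbours had overlapping control ranges, such as Hsd17b4 and Eci1, so their order is not resolved. Mgll, which encodes monoglyceride lipase, was hardly read at all. It had 0 reads in the 3 control libraries, a count that is compatible with up to 3 reads per library, and at most 5 reads in any library (M2 replicate 3). Mgll therefore fell below the filter of 1 TPM in 3 libraries, and this depth could not show a change in it. The other 34 genes were tested, with a median mean level of 41.3 TPM against 17.3 TPM for all 14207 genes tested, and 70 to 29151 reads in each library.

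**Figure D1:**
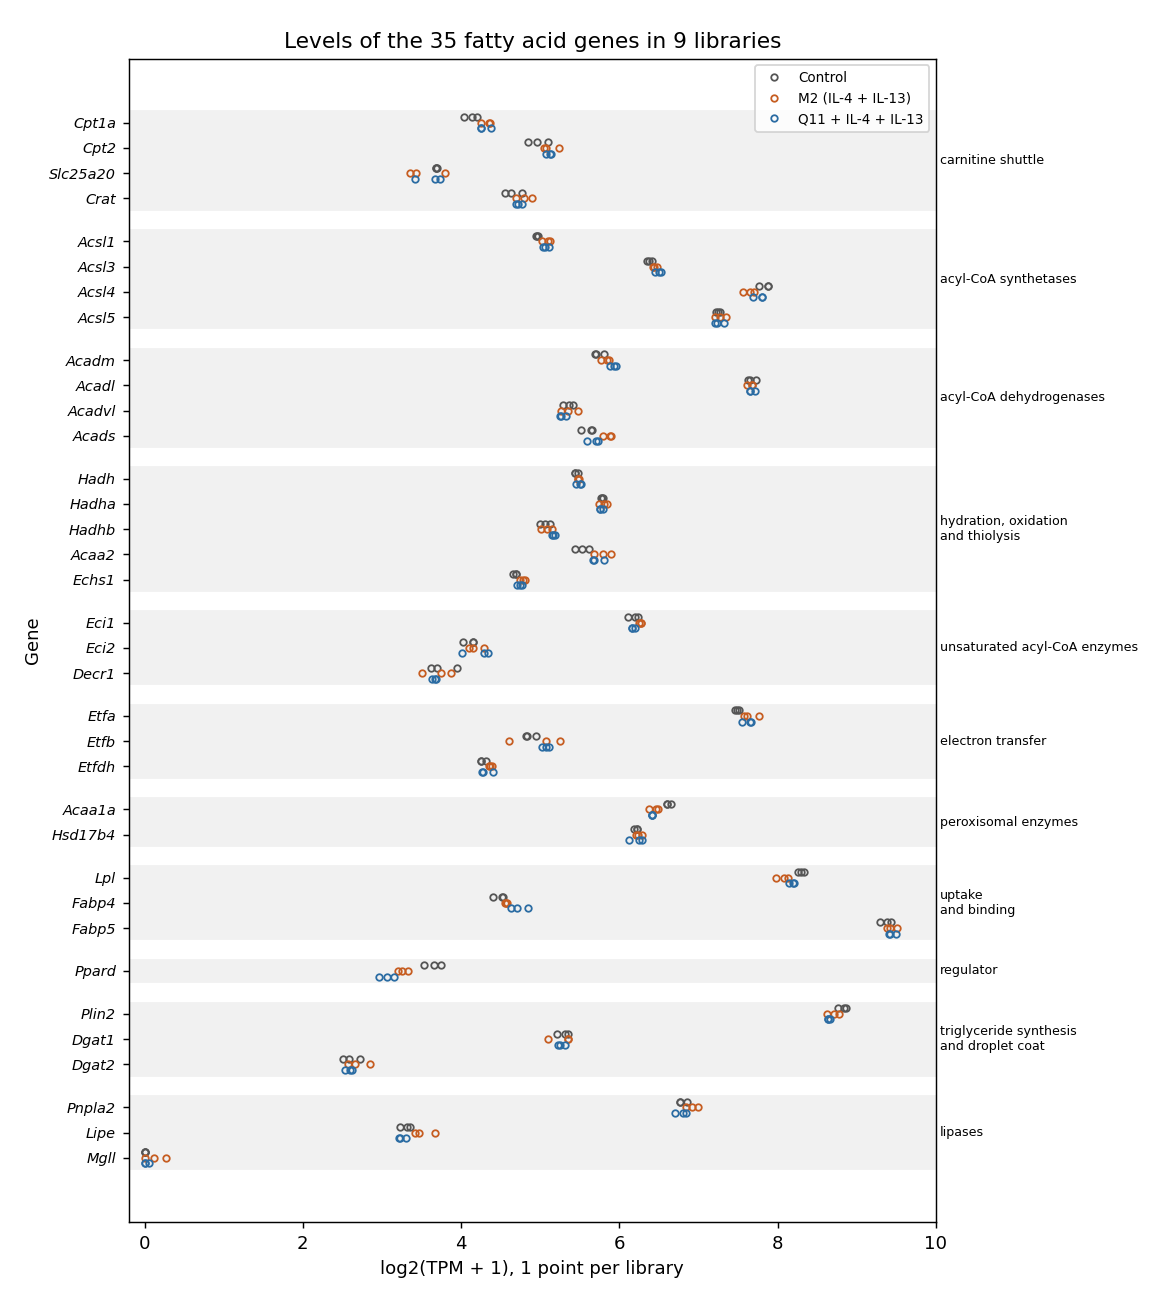
Level of each of the 35 genes in each of the 9 libraries as log2(TPM + 1), 1 point per library, coloured by group and grouped by role. Groups of points lie close together for nearly every gene, from Fabp5 (661 TPM in control) at the right to Mgll (0 reads in control) at the left, and Ppard shows the widest separation between control and the other groups.

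Related genes kept their order of TPM in every library, with the same limit on comparing different genes. The ratio of Dgat1 to Dgat2, which encode unrelated enzymes for the same last step of triglyceride synthesis, was 5.35 to 8.24 over the 9 libraries. Pnpla2, the adipose triglyceride lipase gene, stood at 10.8 to 13.2 times Lipe. Fabp5 stood at 25.9 to 32.2 times Fabp4, a neighbouring gene 187.48 kb away on chromosome 3. Hadha and Hadhb encode the 2 subunits of the mitochondrial trifunctional protein. They lie on opposite strands of chromosome 5 with 85 bases between the 2 gene models, and their ratio was 1.51 to 1.76. The ratio of Acadl to Acadm, dehydrogenase genes for long and medium chains, was 3.89 ± 0.0515 in control, 3.58 ± 0.0566 in M2 and 3.40 ± 0.0695 in Q11 libraries. The ratio of Acsl4 to Acsl1 was 7.58 ± 0.403 in control, 6.03 ± 0.491 in M2 and 6.64 ± 0.223 in Q11 libraries. The summed level of the 35 genes was 3230.5 ± 42.0 TPM in control, 3222 ± 68.7 TPM in M2 and 3220.1 ± 4.07 TPM in Q11 libraries, so the groups overlapped. The sum over the 19 mitochondrial genes was 949 ± 7.93 TPM in control, 1012 ± 25.8 TPM in M2 and 997 ± 3.28 TPM in Q11 libraries. There the highest control library (958 TPM) lay below the lowest M2 (995 TPM) and Q11 (993 TPM) libraries.

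The first comparison, M2 against control, concerns the effect of the cytokines on these genes. Among these genes Ppard, the gene of the lipid-activated nuclear receptor PPAR delta, fell from 11.6 ± 0.923 to 8.60 ± 0.420 TPM, and Lpl fell from 313 ± 8.49 to 266 ± 14.9 TPM. Acsl4 and the peroxisomal thiolase gene Acaa1a also fell, and among mitochondrial genes the dehydrogenase gene Acads rose from 47.6 ± 2.49 to 56.9 ± 2.33 TPM and the thiolase gene Acaa2 rose from 45.2 ± 2.76 to 54.3 ± 4.25 TPM. None of these differences reached 0.5 on the log2 scale in the point estimate. In all, 2 of the 34 genes tested rose and 4 fell (limma, adjusted p under 0.05), or 17.6%, beside 12.6% of all genes tested (6.88% higher and 5.75% lower). With shared reads separated, 1 rose and 4 fell, beside 9.36% of all genes, Acaa2 being the one lost. No Q11 library enters this difference, but the fit pools the spread of all groups. The median half-width of the 95% interval over all genes was 0.178 as deposited and 0.190 separated. The difference lay above 0 in 25 of the 34 genes, with a median of 0.07, where all genes had 49.4% above 0 and a median of 0.00 to 2 decimals. Groups did not overlap in 16 of the 34 genes (12 higher and 4 lower), or 47.1%, beside 28.4% of all genes. The 34 genes were measured more precisely, with a median half-width of the 95% interval of 0.114 beside 0.178 for all genes. Their median absolute difference was 0.098 beside 0.1165 for all genes. Shares beside all genes, here and below, depend on such precision too, and its part in them was not tested. Subtracting the median of each library gave 4 higher and 4 lower, with 64.7% of all calls higher in place of 54.5%, and quantile normalization gave 1 higher and 5 lower. Without control replicate 1 the count was 1, and without M2 replicate 1 it was 3. Calls over all genes went from 1794 to 1139 and 1214 in these 2 fits.

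Q11 against M2 asked what Q11 added to the cytokine treatment, and none of the 34 genes passed. By limma 0 of 14207 genes passed (0.0%), and limma-voom, run on recovered reads, passed 2 genes, none of them among the 34. At an unadjusted p under 0.05 there were 8 of the 34 (Acads, Lipe, Pnpla2, Ppard and Eci1 lower, and Lpl, Fabp4 and Acsl4 higher), or 23.5%, beside 11.4% of all genes. With shared reads separated there were 3 (Lipe, Lpl and Acsl4), or 8.82%, beside 8.18% of all genes. Groups did not overlap in 8 of the 34 genes, or 23.5%, beside 17.6% of all genes. Once the shared reads were separated they were 5, or 14.7%, beside 12.7% of all genes. The 95% interval of the difference had a median half-width of 0.11 on the log2 scale and lay within 0.5 of 0 on both sides in all 34 genes. A difference of 0.5 between Q11 and M2 libraries was therefore outside every interval.

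Q11 against control compared the combined treatment with untreated cells, on control libraries that the M2 comparison also used. Ppard fell again, to 7.34 ± 0.524 TPM, together with Acaa1a and the droplet coat gene Plin2, and the dehydrogenase gene Acadm and the binding protein gene Fabp4 rose. These 2 rises and 3 falls were 14.7% of the 34 genes, beside 10.7% of all genes (5.19% higher and 5.53% lower). With shared reads separated, 0 rose and the same 3 genes fell, beside 7.99% of all genes. Groups did not overlap in 14 of the 34 genes (10 higher and 4 lower), or 41.2%, beside 32.1% of all genes. With shared reads separated they were 13 (9 higher and 4 lower), or 38.2%, beside 26.9% of all genes. The count of 5 dropped to 3 without control replicate 1, control replicate 3, Q11 replicate 1 or Q11 replicate 2, and to 2 without control replicate 2 or Q11 replicate 3. Calls over all genes dropped in these fits too, from 1524 to between 776 and 1067. The labels do not state that the libraries of a group are separate cultures, so all p-values refer to the spread between these libraries, which may be technical. As deposited, that spread includes Q11 replicate 2 and Q11 replicate 3, which share reads.

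**Figure D2:**
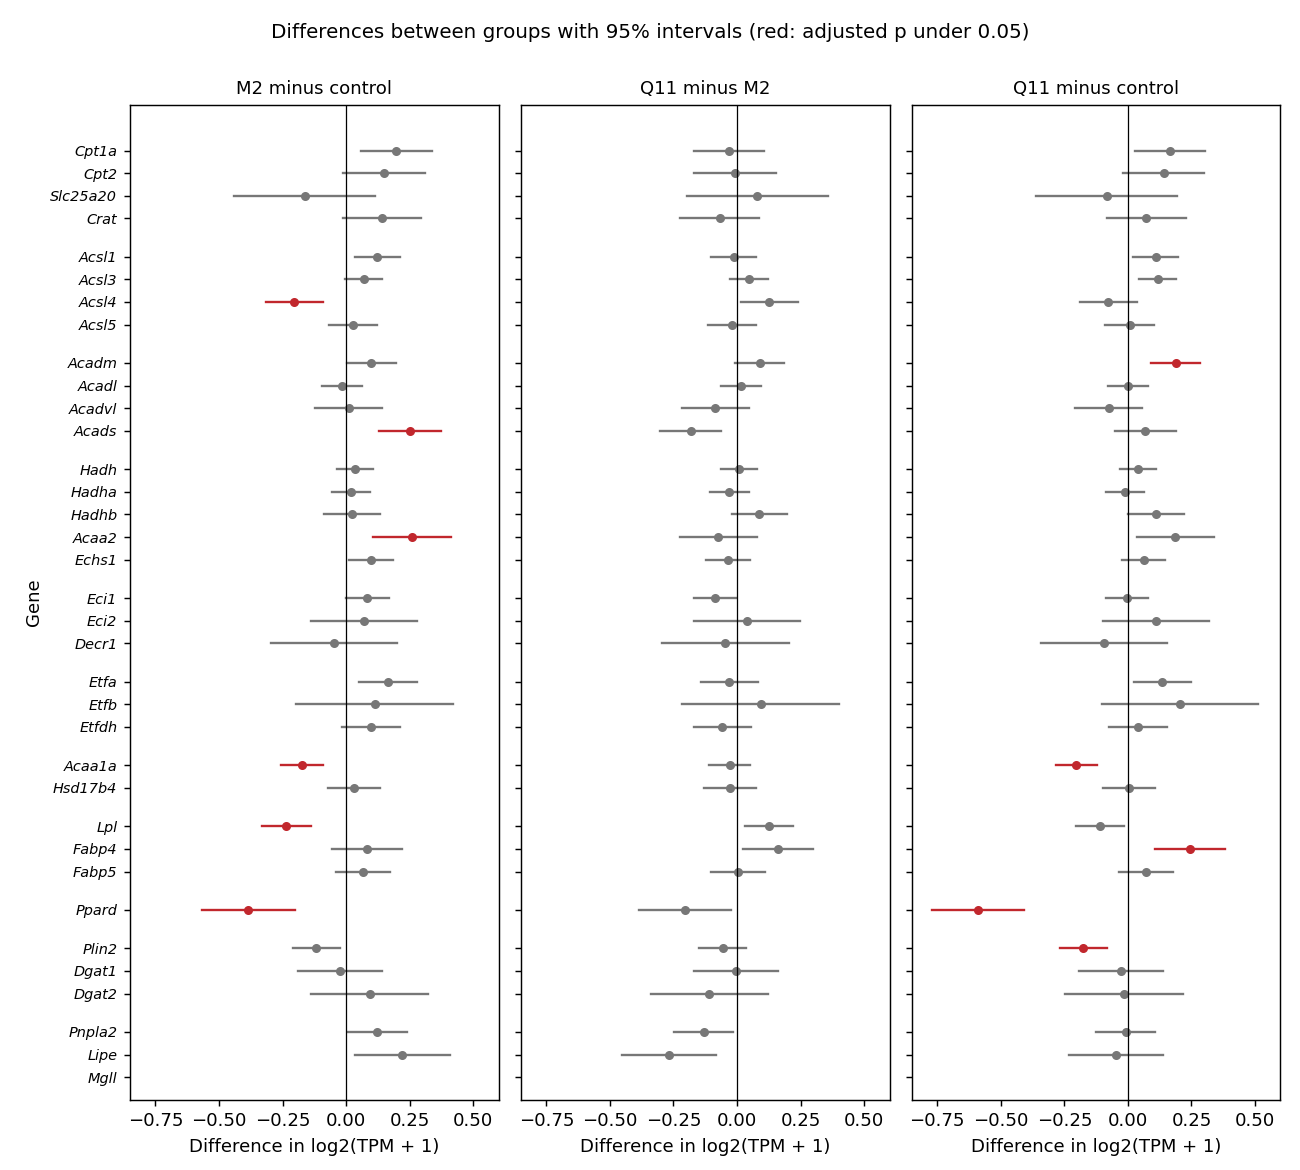
Difference of each gene on the log2(TPM + 1) scale in the 3 comparisons (M2 minus control, Q11 minus M2, Q11 minus control), with 95% intervals, and red where the limma adjusted p is under 0.05. Ppard and Acaa1a are red on the left of 0 in both comparisons with control, no gene is red in the middle panel, and Mgll has no interval because it was not tested.

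Ppard, Acaa1a and Plin2 were the 3 genes that fell between Q11 and control, and the sequences at their start sites are shown for that reason. RefSeq windows of 300 bases (250 before and 50 after a start, build GRCm38.p6) were at hand for 26 of the 35 genes, in 29 windows. In each line below, capitals mark every match on either strand to the nuclear receptor core AGGTCA or to the CCAAT box CCAAT, and sequences run 5′ to 3′ on the strand of the gene. The windows are Ppard at chr17:28232504-28232803 (plus strand), Acaa1a at chr9:119341044-119341343 (plus strand) and Plin2 at chr4:86670010-86670309 (minus strand).
Ppard: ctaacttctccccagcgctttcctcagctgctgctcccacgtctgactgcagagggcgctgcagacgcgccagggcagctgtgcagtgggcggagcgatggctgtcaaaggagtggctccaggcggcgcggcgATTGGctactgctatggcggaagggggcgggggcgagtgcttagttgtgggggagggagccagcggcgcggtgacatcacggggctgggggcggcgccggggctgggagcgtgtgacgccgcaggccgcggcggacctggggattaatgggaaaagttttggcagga
Acaa1a: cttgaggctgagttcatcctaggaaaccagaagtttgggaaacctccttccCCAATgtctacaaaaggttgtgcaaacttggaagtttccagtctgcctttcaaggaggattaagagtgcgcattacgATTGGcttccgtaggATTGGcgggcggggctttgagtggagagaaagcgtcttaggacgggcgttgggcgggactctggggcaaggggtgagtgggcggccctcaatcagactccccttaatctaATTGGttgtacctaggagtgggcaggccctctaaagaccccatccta
Plin2: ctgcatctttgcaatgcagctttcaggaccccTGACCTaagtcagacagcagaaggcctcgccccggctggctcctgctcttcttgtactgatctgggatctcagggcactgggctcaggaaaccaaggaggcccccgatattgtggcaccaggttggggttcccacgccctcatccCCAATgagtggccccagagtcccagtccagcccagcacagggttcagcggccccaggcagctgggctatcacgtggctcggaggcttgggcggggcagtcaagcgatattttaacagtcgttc
Acaa1a held 4 matches to CCAAT, and Ppard and Plin2 held 1 each. Plin2 also held 1 match to AGGTCA. In all, CCAAT was found in 12 of the 29 windows, beside 37.4% of 32851 windows of the same length, and AGGTCA in 5 of 29 (Acadm, Acadvl, Cpt1a, Echs1 and Plin2), beside 16.3%. The direct repeat AGGTCANAGGTCA, the form bound by PPAR and RXR pairs and overlapping 2 copies of the core, was in 0 of 29, beside 0.0396% of all windows. TTCNNNNGAA, the spacing that STAT6 prefers, was in 0 of 29, beside 6.95%. A match describes the letters only, and the lack of one says only that these letters are not in this window.

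Ppard encodes the receptor through which fatty acids switch on many oxidation genes (ENSMUSG00000002250, GRCm38 chromosome 17, 28232700 to 28301474). It had 11.6, 12.4 and 10.6 TPM in the control libraries, 8.55, 8.21 and 9.05 TPM in the M2 libraries, and 7.87, 7.34 and 6.82 TPM in the Q11 libraries. The 3 groups did not overlap: every M2 library lay below every control library, and every Q11 library below every M2 library. Between M2 and control Ppard fell by 0.39 on the log2 scale (SE 0.0804, 95% interval -0.57 to -0.20, limma adjusted p = 0.0156). Over 19 alternative settings its adjusted p was 7.42e-04 to 0.0531, and the call was lost without control replicate 1 (0.0525) or control replicate 2 (0.0531). Between Q11 and control it fell by 0.59 (SE 0.0804, -0.77 to -0.41, adjusted p = 0.00215), a call kept in all 19 settings (2.23e-06 to 0.0127). The difference between Q11 and M2 libraries was -0.20 (-0.39 to -0.02, adjusted p = 0.392), and -0.17 separated, and did not pass. Reads behind these values were 256 to 524 in each library.

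Acaa1a (ENSMUSG00000036138, chromosome 9, 119339676 to 119350299) encodes the thiolase that ends each round of peroxisomal beta-oxidation. Its levels were 99.8, 95.9 and 95.7 TPM in control, 89.0, 81.8 and 87.3 TPM in M2, and 84.0, 84.5 and 84.3 TPM in Q11 libraries. All treated libraries lay below all control libraries, and the M2 and Q11 groups overlapped. Acaa1a fell by 0.17 in M2 libraries (SE 0.0358, -0.25 to -0.09, limma adjusted p = 0.0149) and by 0.20 in Q11 libraries (SE 0.0358, -0.28 to -0.12, adjusted p = 0.00805). The M2 call was lost only without control replicate 1 (0.0568), in a range of 0.00341 to 0.0568, and the Q11 call was kept in all 19 settings (6.50e-04 to 0.0360). Its near copy Acaa1b, 182.582 kb away, held 4.79 to 11.5 TPM and also lay lower. Because the pair are near copies, the division of reads between them is uncertain. Exons of Myd88 on the opposite strand cover 6.57% of the exon length of Acaa1a, and the NEBNext Ultra kit named in the labels was not stated to keep strand. The other peroxisomal gene, Hsd17b4, encodes the bifunctional enzyme of the middle steps and differed from control by 0.03 in M2 and 0.00 in Q11 libraries, within its spread (68.5 to 77.3 TPM over all libraries).

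Lpl encodes the lipase that frees fatty acids from lipoprotein triglyceride at the cell surface (ENSMUSG00000015568, chromosome 8, 68880491 to 68907448). Control libraries had 321, 304 and 313 TPM, M2 libraries 268, 279.7 and 250.3 TPM, and Q11 libraries 282, 293 and 295 TPM. The groups did not overlap, with Q11 libraries between the other groups. Lpl fell by 0.24 in M2 libraries (SE 0.0418, -0.33 to -0.14, limma adjusted p = 0.00782), and among the 34 genes this was the one M2 call kept in all 19 settings (1.17e-05 to 0.0332). Q11 libraries differed from control by -0.11 (-0.21 to -0.02, adjusted p = 0.143) and from M2 by 0.12 (0.03 to 0.22, adjusted p = 0.362), and neither passed in the fit as deposited. By limma-voom on the recovered reads the difference from control passed (0.0212). Lpl held more reads than any other of the 34 genes, 12536 to 29151 in each library.

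Fabp4 and Fabp5 encode binding proteins that carry fatty acids through the cytosol. Fabp4 (ENSMUSG00000062515, chromosome 3, 10204088 to 10208576) had 22.1, 21.8 and 20.2 TPM in control, 22.5, 23.0 and 22.6 TPM in M2, and 27.7, 23.8 and 25.2 TPM in Q11 libraries. As deposited, all Q11 libraries lay above the others, and Fabp4 rose by 0.24 against control (SE 0.0605, 0.11 to 0.38, limma adjusted p = 0.0351). Separation of the shared reads brought Q11 replicate 2 down to 22.3 TPM, below every M2 library, and the call was lost (0.21, adjusted p = 0.131). It was also lost without control replicate 1, 2 or 3, M2 replicate 1, or Q11 replicate 1 or 3 (0.0510 to 0.108), and with no filter (0.0618), no trend (0.0572) and a replicate block (0.0584). The range over 19 settings was 0.0208 to 0.158. Fabp5 (ENSMUSG00000027533) had 666, 692 and 624 TPM in control, 665, 684 and 728 TPM in M2, and 718, 678 and 686 TPM in Q11 libraries. Its groups overlapped, with differences of 0.07 for M2 (-0.04 to 0.17, adjusted p = 0.412) and 0.07 for Q11 against control (-0.03 to 0.18, adjusted p = 0.407).

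Acyl-CoA synthetases trap a fatty acid in the cell by joining it to coenzyme A. Acsl4 (ENSMUSG00000031278, chromosome X, 142317993 to 142390535), which prefers arachidonic acid, had 235, 216 and 233 TPM in control, 199.6, 206 and 188 TPM in M2, and 205, 222 and 222 TPM in Q11 libraries. Control and M2 libraries did not overlap, and Q11 libraries overlapped both. Acsl4 fell by 0.20 in M2 libraries (SE 0.0491, -0.32 to -0.09, limma adjusted p = 0.0277). That call was lost without 1 of 4 libraries, namely control replicate 1 (0.0940) or 3 (0.0910) or M2 replicate 1 (0.0647) or 3 (0.0772). It was also lost with no filter (0.0604), no trend (0.0699) and a replicate block (0.0698), in a range of 6.97e-04 to 0.104 over 19 settings. The other synthetases did not pass and lay the other way or near 0. Acsl1 differed by 0.12 in M2 (adjusted p = 0.0794) and 0.11 in Q11 libraries (0.125) against control, and all treated libraries (31.6 to 33.8 TPM) lay above control (29.9 to 30.4 TPM). It passed in M2 libraries with median centring (0.0428) and without M2 replicate 2 (0.0489). Acsl3 differed by 0.07 in M2 (0.224) and 0.12 in Q11 libraries (0.0544). It passed in Q11 libraries with a filter of 5 TPM (0.0471), with median centring (0.0415), by limma-voom (0.0382) and without Q11 replicate 1 (0.0499). Acsl5 differed by 0.03 and 0.01, with 8.31% of its exon length shared with the opposite-strand gene Zdhhc6.

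The carnitine shuttle carries acyl groups into mitochondria, and none of its 4 genes passed in any comparison. Cpt1a, the rate-limiting entry enzyme (ENSMUSG00000024900, chromosome 19, 3322334 to 3385733), had 16.6, 17.4 and 15.4 TPM in control, 19.5, 18.1 and 19.4 TPM in M2, and 19.7, 17.996 and 18.1 TPM in Q11 libraries. All 6 treated libraries lay above all 3 control libraries. Differences were 0.20 for M2 (0.06 to 0.34, limma adjusted p = 0.0708) and 0.17 for Q11 against control (0.03 to 0.30, adjusted p = 0.132), and by limma-voom the M2 difference passed (0.0291). Cpt2, the matching enzyme of the inner membrane (ENSMUSG00000028607), had 30.2, 27.8 and 33.3 TPM in control, 32.7, 32.1 and 36.6 TPM in M2, and 32.6, 34.2 and 33.8 TPM in Q11 libraries. Its groups overlapped, and its differences from control were 0.15 (adjusted p = 0.230) and 0.14 (0.274). Crat, the carnitine acetyltransferase gene, differed by 0.14 in M2 libraries (0.234), and the carrier gene Slc25a20 by -0.16 (0.455) with M2 libraries at 9.73, 9.26 and 12.9 TPM around the control level of 11.8 to 11.997 TPM.

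Acyl-CoA dehydrogenases take the first step of each round, each for its own chain length. Acads, for short chains (ENSMUSG00000029545, chromosome 5, 115110299 to 115119346), had 44.8, 48.8 and 49.4 TPM in control, 57.9, 54.2 and 58.5 TPM in M2, and 51.8, 51.1 and 47.1 TPM in Q11 libraries. Every M2 library lay above every other library, and Q11 and control libraries overlapped. Acads rose by 0.25 in M2 libraries (SE 0.0533, 0.13 to 0.37, limma adjusted p = 0.0168). The call was lost without control replicate 1 (0.0547), M2 replicate 1 (0.0566) or M2 replicate 3 (0.0537), in a range of 0.00884 to 0.131. Q11 libraries differed from M2 by -0.18 (-0.30 to -0.06, adjusted p = 0.328), the smallest adjusted p of the 34 genes in that comparison, and by -0.14 separated, where Q11 replicate 2 stood at 55.8 TPM and the groups overlapped. Acadm, for medium chains (ENSMUSG00000062908, chromosome 3, 153922357 to 153944632), had 54.7, 50.9 and 50.9 TPM in control, 53.6, 56.5 and 57.6 TPM in M2, and 60.9, 57.8 and 59.9 TPM in Q11 libraries. Q11 libraries were highest as deposited, and Acadm rose by 0.19 against control (SE 0.0425, 0.09 to 0.28, adjusted p = 0.0244). That call was lost with shared reads separated (0.17, adjusted p = 0.0732) and without control replicate 2 or 3 or any 1 of the Q11 libraries (0.0503 to 0.0883). It was also lost with no trend (0.0549) and a replicate block (0.0592), in a range of 0.0110 to 0.0883. Acadl, for long chains, had the highest level of the 4, with 211, 196 and 201 TPM in control, 195, 203 and 203 TPM in M2, and 209, 199.7 and 199 TPM in Q11 libraries. Its groups overlapped, and its differences were -0.02, 0.02 and 0.00 to 2 decimals in the 3 comparisons. Acadvl, for very long chains, differed by 0.01 between M2 and control. Opposite-strand exons of Dvl2, at 26.3 to 27.8 TPM in control and 32.5 to 36.5 TPM in M2 libraries, cover 42.9% of its exon length, so the value of Acadvl is uncertain.

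Hydration, oxidation and thiolysis complete the round. Acaa2, the mitochondrial thiolase (ENSMUSG00000036880), had 42.4, 45.1 and 48.0 TPM in control, 54.4, 50.01 and 58.5 TPM in M2, and 50.1, 49.7 and 54.8 TPM in Q11 libraries. Treated libraries all lay above control libraries as deposited. Acaa2 rose by 0.26 in M2 libraries (SE 0.0674, 0.11 to 0.41, limma adjusted p = 0.0376), but this call was kept in only 8 of 19 settings (0.0169 to 0.257). It was lost with shared reads separated (0.0959) and without control replicate 1 (0.119) or 2 (0.0881), M2 replicate 1 (0.0939) or 3 (0.104), or Q11 replicate 1 (0.0522) or 2 (0.0574). No filter (0.0772), quantile normalization (0.0582) and no trend (0.0745) lost it too. Hadha, the larger subunit gene of the trifunctional protein, had 54.5, 53.3 and 53.8 TPM in control, 54.9, 52.7 and 56.2 TPM in M2, and 52.8, 52.8 and 54.6 TPM in Q11 libraries. These groups overlapped and differed from control by 0.02 and -0.01. Hadhb, Hadh and the crotonase gene Echs1 differed from control by 0.02 to 0.10 in M2 and 0.04 to 0.11 in Q11 libraries, and none passed.

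Unsaturated fatty acids need isomerases and a reductase before they can go through the same steps. Eci1, the mitochondrial isomerase with the highest level of this group (ENSMUSG00000024132), had 72.5, 74.3 and 67.8 TPM in control, 74.7, 76.5 and 76.1 TPM in M2, and 72.4, 70.7 and 70.7 TPM in Q11 libraries. M2 libraries lay above all others by a small margin, with differences of 0.08 from control (limma adjusted p = 0.195) and -0.09 between Q11 and M2 (0.416). Eci2 and Decr1, with 10.4 to 19.3 TPM, had wide intervals and overlapping groups in all comparisons. The electron transfer genes Etfa, Etfb and Etfdh pass the electrons on. Etfa (ENSMUSG00000032314), with 175, 182 and 178 TPM in control, 190.1, 195 and 216 TPM in M2, and 187, 201 and 201 TPM in Q11 libraries, had all treated libraries above all control libraries. Its differences were 0.17 for M2 (0.05 to 0.28, adjusted p = 0.0650) and 0.14 for Q11 against control (0.02 to 0.25, adjusted p = 0.133). Etfa passed in M2 libraries by limma-voom (0.0251), with a filter of 5 TPM (0.0494), with median centring (0.0495) and with a replicate block (0.0491), and in Q11 libraries by limma-voom (0.0479) and without M2 replicate 3 (0.0417). Etfb depended on 1 library: M2 replicate 3 had 23.4 TPM beside 36.9 and 32.7 TPM in the other M2 libraries. The difference of Etfb from control was 0.11 with it (adjusted p = 0.667) and 0.30 without it (0.0285). Another gene model on the same strand covers 53.0% of the exon length of Etfb, so its reads may be divided.

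Across the 19 mitochondrial genes (shuttle, dehydrogenases, the later steps, the enzymes for unsaturated chains and electron transfer), 2 rose and 0 fell in M2 libraries by limma (10.5%, beside 12.6% of all genes). At an unadjusted p under 0.05, 6 were higher and 0 lower (31.6%, beside 26.1% of all genes). The difference lay above 0 in 16 of the 19 with a median of 0.10, and the groups did not overlap in 8, all higher (42.1%, beside 28.4%). In Q11 against control 1 rose and 0 fell (5.26%, beside 10.7% of all genes), and 5 were higher and 0 lower at an unadjusted p under 0.05 (26.3%, beside 23.9%). There 13 lay above 0 with a median of 0.07, and 7 had groups without overlap, all higher (36.8%, beside 32.1%). In Q11 against M2 0 passed by limma and by limma-voom, 2 were at an unadjusted p under 0.05 (10.5%, beside 11.4%), and the median was -0.03. With shared reads separated, 1 of the 19 rose in M2 libraries (Acads, 5.26%, beside 9.36% of all genes) and none passed in Q11 libraries against control (beside 7.99%). Groups of Q11 and control libraries then did not overlap in 6 of the 19, all higher (31.6%, beside 26.9%).

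**Figure D3:**
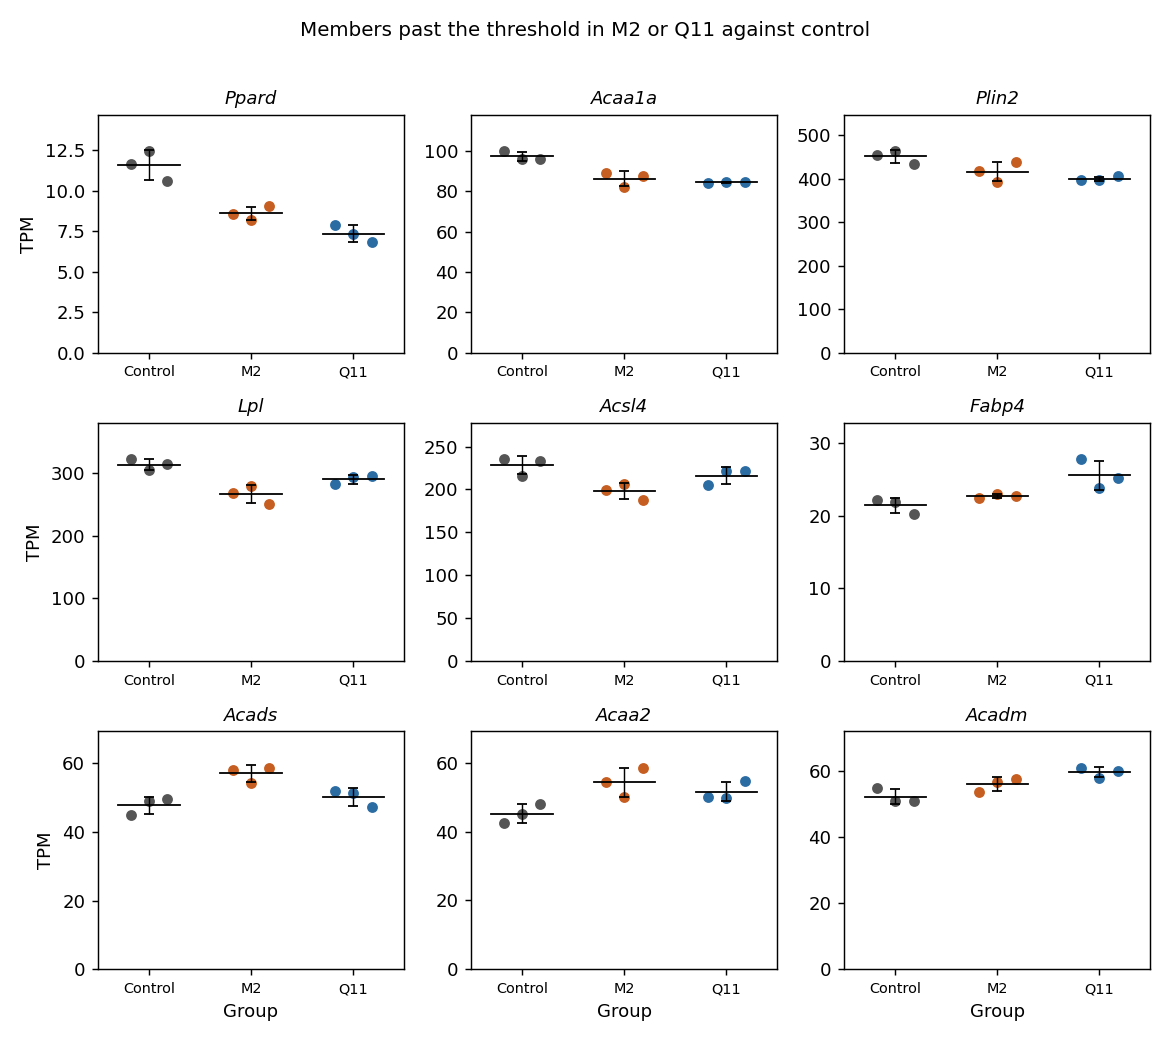
TPM in each library of the 9 genes that passed in M2 or Q11 against control, with the mean (line) and SD (bars) of each group of 3 libraries. Ppard steps down from control (11.6 TPM) to M2 (8.60 TPM) and Q11 (7.34 TPM), Lpl and Acsl4 are lowest in M2 libraries, and Acads is highest there (56.9 TPM).

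Storage genes showed their one change in Plin2 (ENSMUSG00000028494, chromosome 4, 86648386 to 86670060). It had 455, 463 and 434 TPM in control, 417, 393 and 437 TPM in M2, and 397, 396 and 405 TPM in Q11 libraries. Q11 libraries lay below all control libraries, and M2 libraries overlapped both. Plin2 fell by 0.17 between Q11 and control (SE 0.0404, -0.27 to -0.08, limma adjusted p = 0.0266), and by 0.19 separated (0.0306). The call was lost without control replicate 1 (0.0825) or 2 (0.0847) or without Q11 replicate 1 (0.0778), 2 (0.0917) or 3 (0.0692). It was also lost with no filter (0.0587), no trend (0.0752) and a replicate block (0.0634), in a range of 7.36e-04 to 0.0917. Between M2 and control the difference was -0.12 (-0.21 to -0.03, adjusted p = 0.0992), which passed without M2 replicate 3 (-0.15, 0.0377), by limma-voom (0.0193) and with quantile normalization (0.0218). Dgat2 had 4.68, 5.58 and 4.98 TPM in control, 6.19, 5.33 and 4.95 TPM in M2, and 5.14, 4.81 and 5.06 TPM in Q11 libraries. With 70 to 141 reads in each library and overlapping groups, its interval against control was wide (0.09, from -0.14 to 0.32, adjusted p = 0.624). Dgat1 differed from control by -0.03 in both comparisons, with all groups overlapping.

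Lipases break stored triglyceride down in sequence, Pnpla2 first, then Lipe and Mgll. Pnpla2 (ENSMUSG00000025509) had 108, 108 and 115 TPM in control, 119.998, 113 and 127 TPM in M2, and 111, 114 and 103 TPM in Q11 libraries. Its groups overlapped, with differences of 0.12 between M2 and control (limma adjusted p = 0.172) and -0.13 between Q11 and M2 (0.392). Lipe (ENSMUSG00000003123) had 8.34, 8.93 and 9.22 TPM in control, 10.0, 9.65 and 11.8 TPM in M2, and 8.40, 8.85 and 8.30 TPM in Q11 libraries. M2 libraries were above all others, and Q11 and control libraries overlapped. The differences of Lipe were 0.22 between M2 and control (0.04 to 0.41, adjusted p = 0.124) and -0.27 between Q11 and M2 (-0.45 to -0.08, adjusted p = 0.345), and -0.24 separated. Neither passed. An antisense transcript at 0.331 to 1.04 TPM overlaps 15.6% of the exon length of Lipe.

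Other genes of the pathway were named in a list of 141. Of 100 tested, 2 rose and 3 fell in M2 against control, or 5.0%, beside 12.6% of all genes. In Q11 against control 3 rose and 5 fell, or 8.0%, beside 10.7%. In Q11 against M2 0 passed by limma, and 11 of the 100 were at an unadjusted p under 0.05, beside 11.4% of all genes. Abcd2, the peroxisomal transporter of very long chain acyl-CoA (ENSMUSG00000055782, chromosome 15, 91145871 to 91191799), had 0.208, 0.266 and 0.448 TPM in control, 4.15, 2.59 and 3.03 TPM in M2, and 2.77, 3.43 and 3.03 TPM in Q11 libraries. It was nearly silent in control cells and present in every treated library. Abcd2 rose by 1.69 in M2 (SE 0.181, 1.28 to 2.10, limma adjusted p = 5.07e-04) and by 1.64 in Q11 libraries (1.23 to 2.05, adjusted p = 6.61e-04), on 6 to 13 reads in control and 72 to 194 in treated libraries. Acat1, the mitochondrial acetoacetyl-CoA thiolase, had 61.8, 59.8 and 61.0 TPM in control, 67.2, 72.5 and 70.4 TPM in M2, and 70.4, 72.3 and 73.1 TPM in Q11 libraries. It rose by 0.20 (adjusted p = 0.00736) and 0.24 (0.00315), with no overlap with control.

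Lipa, the lysosomal acid lipase that frees fatty acids from endocytosed lipid (ENSMUSG00000024781), had 347, 354 and 339 TPM in control, 296, 305 and 302 TPM in M2, and 297, 305 and 307 TPM in Q11 libraries. All treated libraries lay below all control libraries, and Lipa fell by 0.20 in M2 (limma adjusted p = 0.00133) and by 0.19 in Q11 libraries (0.00192). Agpat4, an acyltransferase of phospholipid synthesis, fell by 0.39 (adjusted p = 0.00209) and by 0.37 (0.00296), from 71.7 ± 4.39 TPM to 54.6 ± 2.15 and 55.3 ± 2.59 TPM. These calls of Abcd2, Acat1, Lipa and Agpat4 were kept in every alternative setting that gave a value. Soat2, a sterol acyltransferase, fell by 0.30 between Q11 and control (24.9 ± 1.56 and 19.98 ± 0.455 TPM, adjusted p = 0.00819) and was kept in all 19. The remaining calls were less stable. Acbd5 fell by 0.23 in M2 libraries (adjusted p = 0.0364), which was lost without control replicate 1 or 3, M2 replicate 1 or 3, or any 1 Q11 library (0.0510 to 0.111; 0.00354 to 0.153 over 19 settings). It was also lost with shared reads separated (0.0558), no filter (0.0632), no trend (0.0548) and a replicate block (0.0863). Between Q11 and control, Acaa1b fell by 0.67 (0.0266), lost without control replicate 1 or 2 or Q11 replicate 2 or 3 (0.0768 to 0.0990; 0.00400 to 0.0990 over all settings) and with no filter (0.0652). Acox3 fell by 0.29 (0.0281), lost with shared reads separated (0.170), no filter (0.0534) and a replicate block (0.0546), and without control replicate 1 or 2 or Q11 replicate 1 or 3 (0.0770 to 0.109; 7.99e-04 to 0.199). Agpat5 rose by 0.14 (0.0413), lost with shared reads separated (0.134), quantile normalization (0.0677), no trend (0.0630) and a replicate block (0.0949), and without any 1 library other than M2 replicate 3 (0.0509 to 0.125; 0.0198 to 0.156). The fatty acid receptor gene Cd36 had 0 reads in control libraries, compatible with up to 3 per library, and at most 9 reads elsewhere (Q11 replicate 2). Among nuclear receptor genes Pparg was at 0.209 to 1.68 TPM and Ppara at 0 to 0.365 TPM, so Ppard was the PPAR gene with the most transcript per length in every library.

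**Figure D4:**
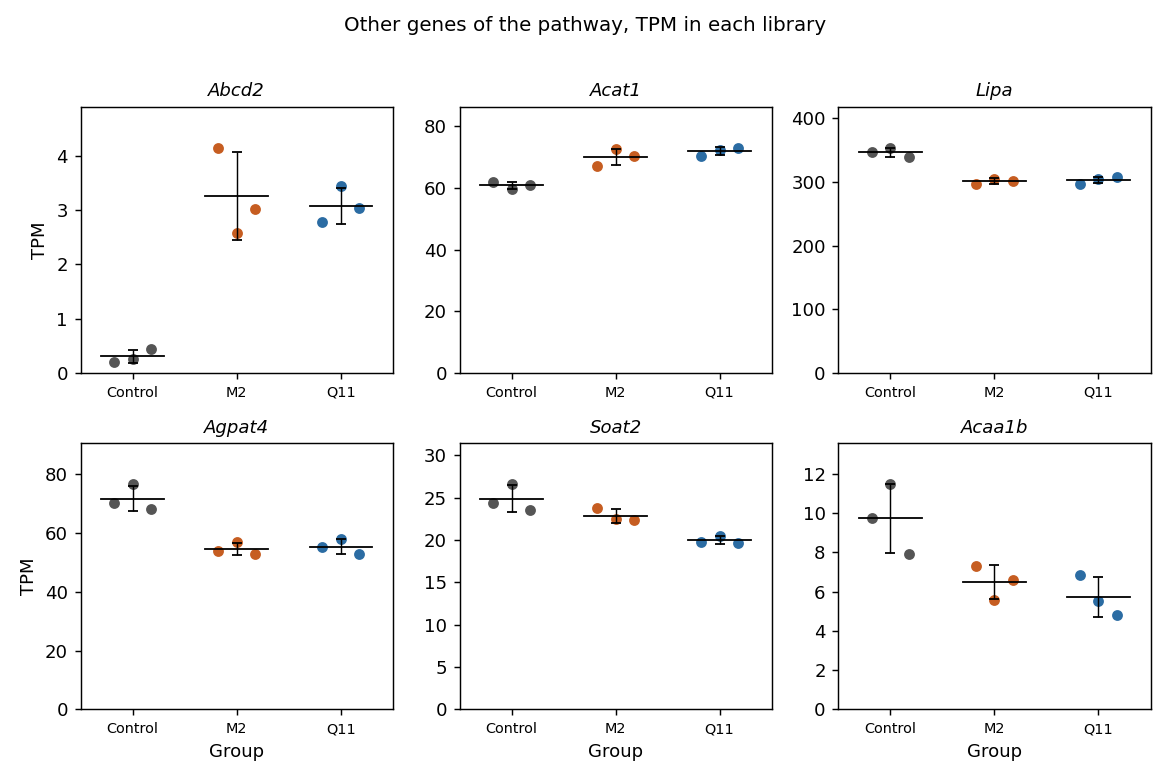
TPM in each library of 6 other genes of the pathway, with the mean (line) and SD (bars) of each group of 3 libraries. Abcd2 goes from 0.307 TPM in control to 3.25 and 3.08 TPM in M2 and Q11 libraries, Acat1 is higher and Lipa and Agpat4 are lower in all 6 treated libraries, and Soat2 is lowest in Q11 libraries.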

How the data were processed

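Poly-A RNA-seq libraries of control, M2 and Q11 cells (3 each) were grouped by the labels. Per the submitters' processing notes, HISAT2 2.0.5, StringTie 1.3.3b and build GRCm38 were used; annotation release and strand setting: not given in the sources used here. Deposited by the authors were TPM for 26157 genes. From them, log2(TPM + 1) was computed for the 14207 genes reaching 1 TPM in 3 or more of 9 libraries, so differences understate those of low genes. limma 3.58.1 (R 4.3.3) fitted 1 mean per group with a mean-variance trend (6 residual degrees of freedom). Tests were two-sided, with Benjamini-Hochberg adjustment over all genes and a threshold of 0.05. Tables and plots used Python 3.11.15, pandas 2.3.3, numpy 2.4.6 and matplotlib 3.10.9.

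TPM times the GENCODE M21 exon length (25573 genes, 97.8%) fell on whole multiples of 1 step per library in 98.8% to 99.1% of low values (up to 20 reads, tolerance 0.1). The reads so recovered served limma-voom and the separation of shared reads. Limits for 0 reads cover counting error only, and 95% intervals are those of limma.

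Per-library values were given for genes past the threshold, for the highest gene of each role and for Cpt1a, Lpl, Fabp4, Fabp5, Ppard, Plin2, Dgat2 and Pnpla2. In the other pathway list, up to 6 genes past the threshold in each direction were named, with Cd36, Pparg, Ppara and Lipa; 1 further gene named by this rule is not reported here. Members and lists were chosen with earlier results of these data known. The fit was tested on simulated data with independent libraries, for M2 against control only, so that test did not cover the shared reads. Alternatives were no filter, a filter of 5 TPM, a pseudocount of 0.1, quantile normalization, median centring, no trend, limma-voom, separated reads, a replicate block, each library left out and, chosen after seeing the data, separated reads without M2 replicate 3.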

Additional observations from a re-analysis of the deposited data

How the results depend on the processing

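Over 19 alternatives, 1777 of 1938 differences of the 34 genes kept their direction and their side of the threshold, 54 lost a call, 18 gained one, 89 that were not called changed sign, and 0 called differences did. Genes called in M2 against control (6) numbered 1 to 7 with 1 library left out and 3 when M2 replicate 3 was dropped after separating shared reads. In Q11 against control (5) they numbered 3 with no filter, 2 with no trend, 8 by limma-voom, 3 with shared reads separated, 3 when M2 replicate 3 was left out as well, and 2 to 6 with 1 library left out. In Q11 against M2 the count stayed at 0 in all 19. Over all genes, M2 against control gave 1139 to 1651 with 1 library left out and 859 when M2 replicate 3 was dropped after that separation. Q11 against M2 gave 3 with no filter, 2 with no trend, 2 by limma-voom and 0 to 2 with 1 library left out. Q11 against control gave 1524 in the main fit, 1159 with no filter, 1103 with no trend, 2110 by limma-voom and 1116 with shared reads separated. The same comparison gave 1127 when M2 replicate 3 was left out as well, and 776 to 1613 with 1 library left out. Leaving out a library also leaves fewer samples to estimate the spread, and the cause of the other changes was not tested.

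Same-numbered libraries did not vary together (correlations of -0.03 to 0.04), so the numbers were not taken to pair them. With the replicate number as a block, 6, 0 and 2 of the 34 genes were called in the 3 comparisons, and 1335, 0 and 1086 of all genes. The smallest genes are limited by depth: Dgat2 had 70 reads in control replicate 1, and its interval was the widest of the storage genes among the 34.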
